A study of Cricetulus griseus with 24 samples.

Results

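The metalloproteases and inhibitors described here are the genes of the ADAM, ADAMTS, matrix metalloprotease (MMP) and tissue inhibitor of metalloproteases (TIMP) families in cultured hamster phagocytes. A gene was taken as a family member when its name began with Adam, Adamts, Mmp or Timp followed by a number, and it was kept when its mean reached 0.5 CPM (its counts scaled to the library's counted fragments) in at least 1 of the 6 groups of libraries. By this rule 62 of 26776 gene names belonged to the families and 27 members were kept: 9 ADAM, 5 ADAMTS, 11 MMP and 2 TIMP genes. The rule uses a level and no comparison between groups, but a gene can pass it through its highest groups alone.

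RNA was sequenced from 24 libraries of LR73 cells, a Chinese hamster line that the labels describe as cultured fibroblasts and that engulfs dying cells. The first experiment held 4 groups of 4 libraries: phagocytes alone (control), phagocytes given cytochalasin D, phagocytes given apoptotic cells, and phagocytes given both. Cytochalasin D blocks the growth of actin filaments and so the uptake of corpses. The corpses were cells of the human T cell line Jurkat, which had received 1500 mJ of ultraviolet C and a further 4 h in culture. How long phagocytes and corpses were together in this experiment is not stated in the labels. The second experiment held wildtype and Slc12a2-deficient LR73 phagocytes, 4 libraries of each, all given apoptotic Jurkat cells for 2 h and then sorted for the pH-sensitive dye CypHer5E, so that both groups consist of phagocytes that had taken up corpses. Slc12a2 encodes a transporter that brings sodium, potassium and chloride into the cell. How Slc12a2 was removed, and whether the deficient cells are 1 clone, is not given in the sources used here, so the genotype and the history of the line cannot be told apart. The second experiment has no group without corpses.

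Metalloproteases cut proteins outside the cell or at its surface with the help of a zinc ion. MMPs degrade collagens and other matrix proteins and are made as inactive precursors, ADAMs sit in the membrane and release the outer parts of receptors, adhesion molecules and growth factor precursors, and ADAMTS proteases are secreted and cut proteoglycans and matrix-assembly proteins. TIMPs bind and block the active enzymes. In phagocytes the family is known for shedding engulfment receptors and for remodelling the matrix around the cell, and its activity is set after translation as well, which RNA levels do not measure.

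The libraries held 8272232 to 18911353 counted fragments in the first experiment and 22758587 to 28450594 in the second, so a count of 3 was worth 0.156 to 0.368 CPM and 0.108 to 0.133 CPM. Slc12a2 itself was at 93.4, 91.2, 99.4 and 103 CPM in wildtype and at 25.3, 22.4, 24.7 and 26.1 CPM in deficient phagocytes, lower in every deficient library and not absent. Of the fibroblast markers, vimentin (Vim) averaged 4331 CPM and fibronectin (Fn1) 1027 CPM in the control group, while the type I collagen genes Col1a1 and Col1a2 had 3 and 8 counts in all 4 control libraries together. The summed level of 8 myeloid markers stayed between 1.17 and 3.81 CPM over all groups. Control library 4, cytochalasin D library 1 and library 4 of the group given both stood farthest from the others on the third principal component of the first experiment, and the counts of changed members are also given without them.

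Per kilobase of exon, Timp1, the inducible secreted inhibitor, was the most abundant member, with 110.0 ± 3.01 CPM per kb (SD, n = 4) in the control group. The next were Adam15 with 45.2 ± 2.56, Mmp14 with 42.5 ± 1.86 and Adam9 with 38.6 ± 2.28 CPM per kb, whose neighbours in that order overlapped in their libraries. Timp2, Adam10, the main sheddase of Notch receptors and cadherins, and Mmp9, a gelatin-degrading MMP, followed at 31.6 ± 0.380, 31.0 ± 2.10 and 28.1 ± 2.13 CPM per kb, again with overlap between neighbours. Adamts1, a secreted protease that cuts versican and aggrecan, stood below them at 23.8 ± 0.410 and above Adam17, the sheddase of tumour necrosis factor, at 19.8 ± 1.36 CPM per kb. At the bottom, Mmp10, Mmp21, Adamts3, Mmp2 and Adam8 lay between 0.137 and 0.425 CPM per kb, with overlapping libraries from one to the next.

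In the sorted wildtype phagocytes Timp1 again had the highest level, at 119 ± 13.3 CPM per kb, and Adam9, Adam10 and Mmp14 came next at 48.2 ± 0.993, 48.0 ± 0.998 and 44.9 ± 1.40 CPM per kb. Mmp10, a stromelysin that cuts matrix proteins and other pro-MMPs, stood at 3.16 ± 0.467 CPM per kb there. In unsorted cells it stood at 0.425 ± 0.156 in the controls, which had no corpses, and at 1.09 ± 0.303 with apoptotic cells. With cytochalasin D it stood at 1.56 ± 0.188, and at 3.42 ± 0.251 in the group given both. Other members also differed between the controls and the sorted wildtype cells, in both directions. Timp2 stood at 31.6 and 15.9 CPM per kb, and Adam12 at 1.30 and 3.29. The experiments were normalised separately and differ in sorting and depth, so levels set across them are a description without a test.

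**Figure D1:**
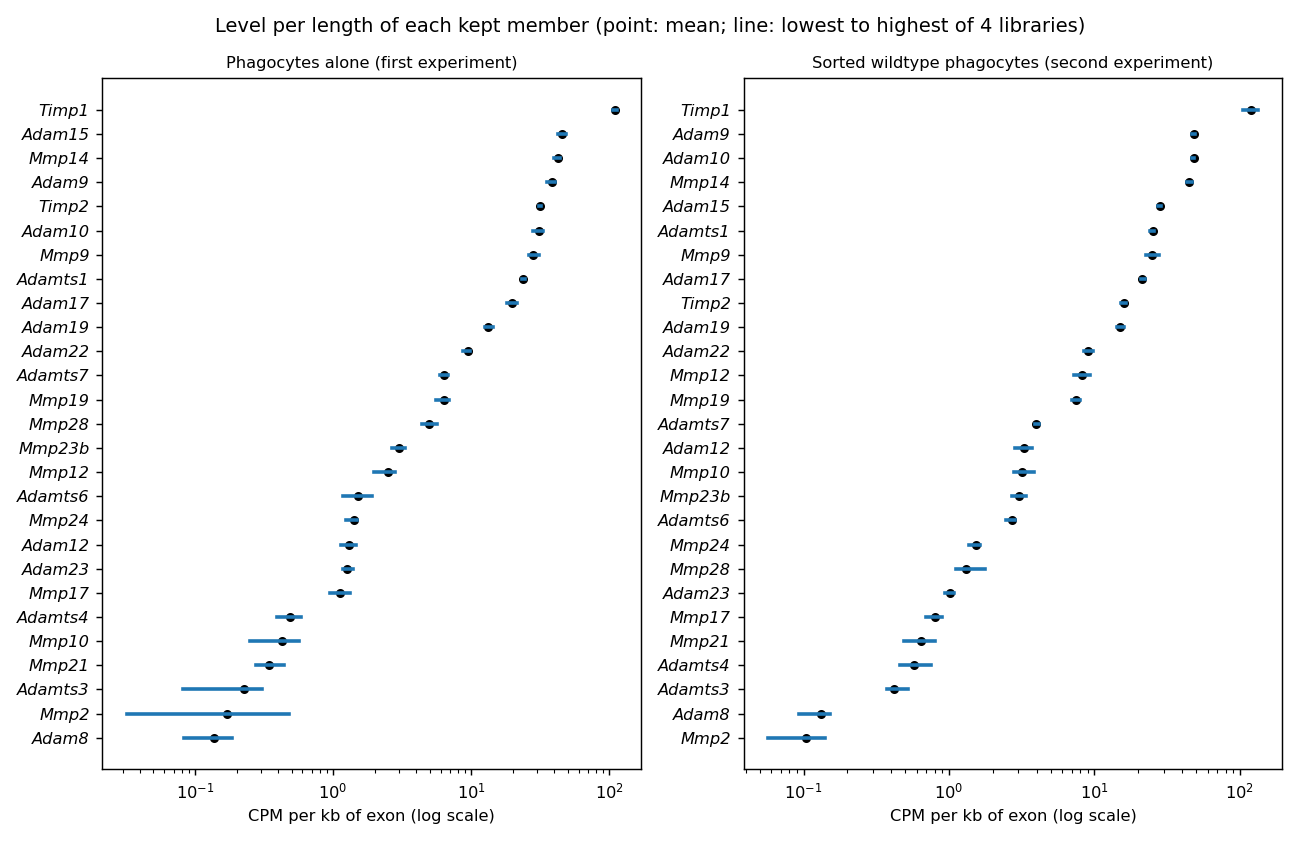
Mean level of each of the 27 kept members in CPM per kilobase of exon, on a logarithmic axis, in phagocytes alone (left) and in sorted wildtype phagocytes that had engulfed corpses (right); lines run from the lowest to the highest of 4 libraries. Timp1 stands above every other member in both panels, at 110.0 and 119 CPM per kb.

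The 35 members that were not kept included 10 with no count in any of the 24 libraries, among them the collagenase gene Mmp1 and the procollagen protease gene Adamts2, and 25 with some counts. Of the other inhibitors, Timp3 had 3 counts and Timp4 had 30 counts over the 24 libraries. Mmp2 and Adam8 were the kept members with the lowest maxima, 1.85 and 0.592 CPM in the cytochalasin D group, and Adam21 and Adamts17 lay just outside the rule at 0.497 CPM in the wildtype engulfing group and 0.456 CPM in the group given apoptotic cells. Of the 27 kept members, 26 had enough counts to be tested in the first experiment and 25 in the second; Adam8 was tested in neither and Mmp2 in the first alone. Adam8 averaged between 0.234 and 0.599 CPM over the 6 groups.

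The first comparison addressed what phagocytes do when given corpses, by setting phagocytes with apoptotic cells against phagocytes alone. Adamts1, Adamts6, Mmp10 and Mmp14 rose, and no member fell. These 4 of 26 tested members compare with 13.7% of all 13106 genes called at an adjusted p under 0.05 in edgeR's quasi-likelihood test, 6.97% higher and 6.68% lower, so the share of members was near that of all genes. Groups were fully separate for 5 members, beside 19.6% of all genes. Without the 3 libraries that stood apart the count was also 4 higher and none lower. The median log2 fold change was 0.0041 over the tested members and 0.0030 over all genes.

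Adamts1 measured 117, 119, 122 and 118 CPM in the control libraries and 180.2, 185, 190.1 and 181 CPM in the libraries with apoptotic cells. All 4 libraries with corpses lay far above all 4 controls, and the spread within each group was small. The log2 fold change was 0.63 (SE 0.05, 1.55-fold higher, adjusted p = 5.88e-08) in edgeR's test. Adamts6, an ADAMTS that acts on fibrillin microfibrils and cell-surface proteoglycans, measured 10.2, 10.4, 8.17 and 13.3 CPM in the controls and 19.4, 19.2, 15.7 and 19.4 CPM with apoptotic cells. Its groups did not overlap either, although apoptotic library 3 lay closer to the controls than the other three did. The log2 fold change of Adamts6 was 0.81 (SE 0.14, 1.76-fold higher, adjusted p = 0.00041). The remaining ADAMTS members Adamts3, Adamts4 and Adamts7 had log2 fold changes of 0.36, -0.03 and 0.08 and were not called.

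Mmp10 was low in the controls, with 0.985, 0.606, 1.02 and 0.450 CPM from 19, 10, 14 and 5 counts, and reached 1.40, 2.71, 1.92 and 1.85 CPM from 18, 38, 33 and 32 counts with apoptotic cells. Every library with corpses exceeded every control, on few counts. The log2 fold change was 1.32 (SE 0.27, 2.50-fold higher, adjusted p = 0.00225). Mmp14, the membrane-bound MMP that cuts collagen at the cell surface and activates pro-MMP2, measured 75.7, 82.2, 83.7 and 81.8 CPM in the controls and 87.3, 96.6, 92.3 and 91.8 CPM with apoptotic cells. The groups were adjacent without overlap, and the log2 fold change was small at 0.19 (SE 0.05, 1.14-fold higher, adjusted p = 0.0221). That call was lost without control library 1 (adjusted p = 0.0892), without apoptotic library 2 (adjusted p = 0.0642) or without apoptotic library 3 (adjusted p = 0.0547), and the other 3 calls were kept under all 16 alternative settings.

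Timp1 measured 92.3, 91.0, 86.7 and 88.8 CPM in the controls and 95.3, 98.0, 103 and 97.4 CPM with apoptotic cells. The groups did not overlap, but the difference missed the threshold with a log2 fold change of 0.13 (adjusted p = 0.0515), and passed it with a stricter filter on low counts (adjusted p = 0.0459). Timp2, the constitutively made inhibitor that also takes part in activating pro-MMP2, measured 109, 107, 106 and 107 CPM and 106, 105, 108 and 98.3 CPM, with overlapping groups and a log2 fold change of -0.04 (adjusted p = 0.708). None of the 8 tested ADAM genes was called in this comparison, the ADAM proteases with a median log2 fold change of -0.09. Adam10 was called lower without control library 2 (adjusted p = 0.0411) and with no filter on low counts (adjusted p = 0.049), and Adam9 without control library 3 (adjusted p = 0.0305).

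The corpses were human, and T cell transcripts moved with this comparison. Of 8 tested T cell markers 3 rose and none fell. Of all 20 on the list, 8 had counts in the control group and 15 in the group given apoptotic cells, where Cd2, Cd3g, Cd247, Cd5 and Cd6 were at 0. The kinase genes Lck and Zap70 averaged 0.0259 and 0.0130 CPM in the controls and 3.20 and 3.35 CPM with apoptotic cells, and 3.07 and 2.96 CPM with apoptotic cells under cytochalasin D. The summed level of the list ran from 53.9 to 60.8 CPM in the controls and from 58.5 to 65.2 CPM with apoptotic cells. The summed fibroblast markers, dominated by vimentin, ran from 6737 to 7325 CPM and from 8119 to 8653 CPM. In bulk libraries such as these, fewer cells of a type and less RNA per cell cannot be told apart, and the part of corpse RNA or of the fibroblast markers in the members' changes was not tested. In the sorted cells of the second experiment Zap70 had 0 counts in all 8 libraries and Lck 6 and 5 counts per group. That experiment has no group without corpses, so it holds no measure of the members' changes with corpses.

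**Figure D2:**
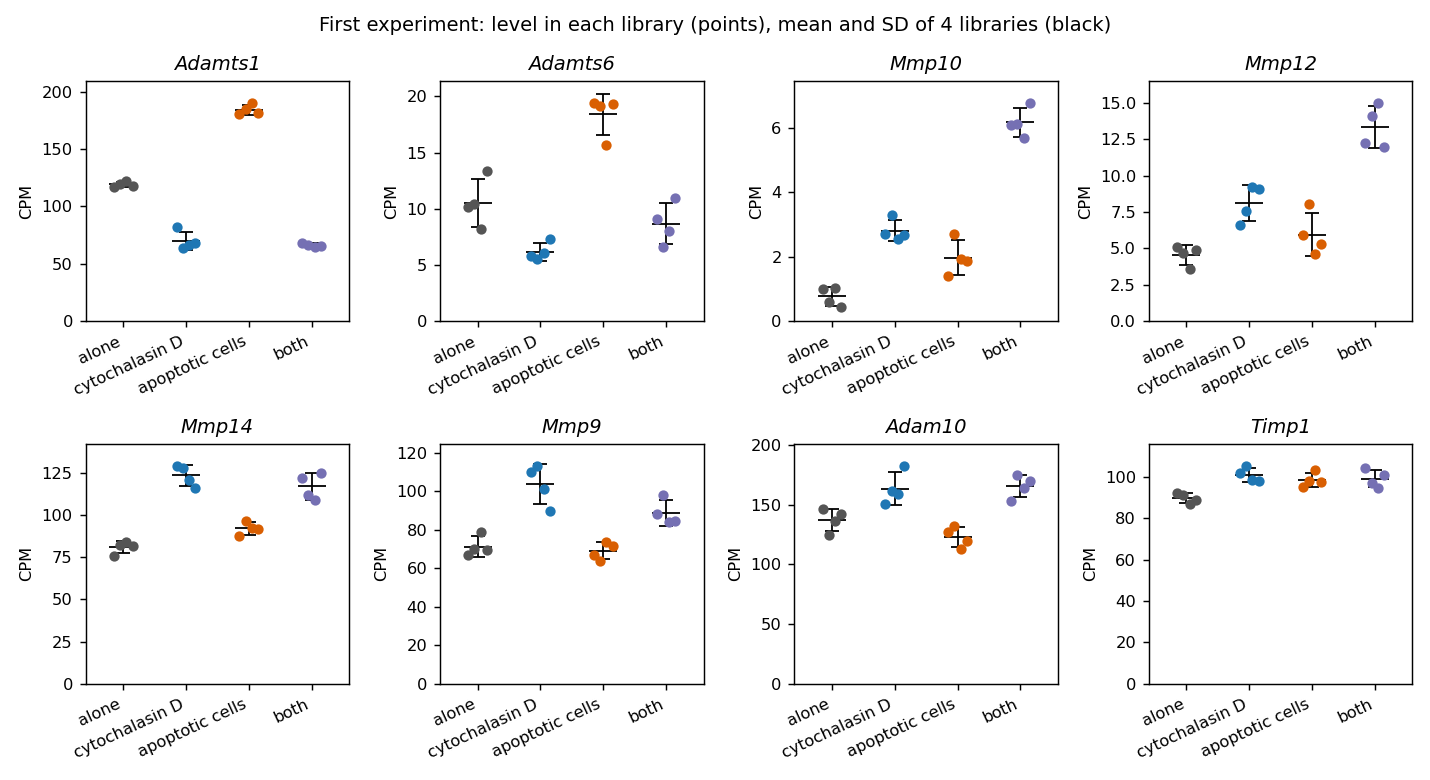
Level of 8 members in CPM in every library of the first experiment, in phagocytes alone, with cytochalasin D, with apoptotic cells and with both; points are libraries and black marks the mean and SD of 4 libraries. Adamts1 is highest with apoptotic cells alone, at 180.2 to 190.1 CPM, whereas Mmp10 and Mmp12 are highest in the group given both.

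Cytochalasin D alone, set against the same control libraries, asks what blocking actin assembly does without corpses. It raised 10 members and lowered 3 of the 26 tested, beside 26.3% of all genes called in this comparison, 13.5% higher and 12.8% lower. For 13 members the groups did not overlap, beside 24.3% of all genes. Secreted and membrane MMPs made up 6 of the 10 that rose, with Mmp10, Mmp12, Mmp9, Mmp2, Mmp14 and Mmp17, and the 3 that fell were Adamts1, Adamts6 and Adam22. Mmp2 reached 0.5 CPM only in the groups given cytochalasin D, at 1.85 and 1.60 CPM, against 0.394 CPM in the controls. Its membership rests on those groups, so its rise was favoured by the rule and is no separate support. The median log2 fold change of the tested members was 0.21, beside 0.0088 over all genes. Without the 3 libraries that stood apart, 9 members were higher and 3 lower.

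Among the secreted MMPs, Mmp10 measured 2.72, 3.31, 2.54 and 2.68 CPM with cytochalasin D, from 34, 45, 36 and 43 counts. All 4 values lay above every control given above, and the log2 fold change was 1.83 (SE 0.26, 3.55-fold higher, adjusted p = 1.06e-05). Mmp12, which degrades elastin, measured 5.08, 4.67, 3.57 and 4.86 CPM in the controls and 6.63, 7.57, 9.25 and 9.09 CPM with cytochalasin D. The groups did not overlap and the log2 fold change was 0.84 (SE 0.17, 1.79-fold higher, adjusted p = 0.000568). Mmp9 measured 66.7, 69.9, 79.1 and 69.4 CPM in the controls and 110.2, 113, 101 and 89.9 CPM with cytochalasin D. Its treated libraries were all above the controls, library 4 by the least, and the log2 fold change was 0.54 (SE 0.07, 1.45-fold higher, adjusted p = 3.16e-06). Mmp2, the other gelatinase, was near the detection limit, with 4, 18, 1 and 2 counts in the controls and 20, 27, 21 and 39 counts with cytochalasin D. Control library 2 carried most of the control counts, and the log2 fold change of 2.19 (adjusted p = 0.00148) rests on these few fragments. Without control library 2 the Mmp2 log2 fold change was 3.51 (adjusted p = 1.78e-05), an 11.4-fold difference in place of 4.55-fold.

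The membrane-bound Mmp14 measured 129, 128, 121 and 116 CPM with cytochalasin D, well above the control libraries, with a log2 fold change of 0.61 (SE 0.05, 1.53-fold higher, adjusted p = 4.99e-09). Mmp17, a membrane MMP held by a lipid anchor, measured 4.46, 3.58, 4.96 and 3.78 CPM in the controls and 5.59, 6.83, 5.09 and 5.54 CPM with cytochalasin D. Its groups were adjacent without overlap, and its log2 fold change of 0.45 (adjusted p = 0.0383) was not called on leaving out control library 1, 2 or 4 or cytochalasin D library 1, 2 or 4 (adjusted p = 0.053 to 0.142), nor with DESeq2 (adjusted p = 0.0621). Timp1 measured 102, 105, 98.3 and 98.0 CPM with cytochalasin D. Every treated library was above every control, by a small margin, and the log2 fold change was 0.17 (SE 0.05, 1.12-fold higher, adjusted p = 0.00782). Timp2 measured 108, 113, 126 and 117 CPM, overlapped the controls and was not called at a log2 fold change of 0.12 (adjusted p = 0.124).

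Among the ADAM genes, Adam10 measured 146, 125, 136 and 142 CPM in the controls and 151, 161, 159 and 183 CPM with cytochalasin D. The groups lay next to each other without overlap, and the log2 fold change was 0.25 (adjusted p = 0.00349). Adam19, a protease that processes neuregulins, measured 50.3, 55.5, 48.9 and 48.7 CPM and 59.0, 60.6, 64.9 and 58.9 CPM, with a log2 fold change of 0.26 (adjusted p = 0.00376). Adam22, which lacks protease activity and serves as a receptor for secreted LGI proteins, went the other way, from 57.8, 59.3, 59.3 and 53.2 CPM to 45.2, 49.1, 43.1 and 47.7 CPM. All its treated libraries were below the controls, and the log2 fold change was -0.31 (SE 0.07, 1.24-fold lower, adjusted p = 0.00116).

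Adamts1 measured 81.8, 63.5, 65.9 and 68.3 CPM with cytochalasin D. Each of these values lay far under the lowest control, library 1 less so than the other three, and the log2 fold change was -0.77 (SE 0.06, 1.71-fold lower, adjusted p = 3.45e-10). Adamts6 measured 5.75, 5.51, 6.08 and 7.28 CPM, again below every control, with a log2 fold change of -0.76 (SE 0.15, 1.69-fold lower, adjusted p = 0.00067). Adamts7, which cuts the cartilage matrix protein COMP, had a log2 fold change of 0.36 (adjusted p = 0.00198). Its groups overlapped, since cytochalasin D library 4 measured 35.7 CPM, within the control range. Of 9 tested fibroblast markers 2 fell with cytochalasin D and none rose, and of 8 T cell markers 1 fell, while 1 of 2 myeloid markers rose. The summed fibroblast markers ran from 5669 to 6324 CPM with cytochalasin D, below the control range, and their part in these changes was not tested.

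Apoptotic cells given under cytochalasin D, a setting meant to allow contact with corpses while blocking uptake, were compared with cytochalasin D alone. Mmp10 and Mmp12 rose and Mmp17, Mmp28 and Mmp9 fell, 5 of 26 tested members beside 8.61% of all genes called, 4.82% higher and 3.79% lower. The cytochalasin D libraries are shared with the comparison against control, where they enter with the opposite sign. The rise of Mmp17 and Mmp9 there and their fall here are thus not independent. For 6 members the groups did not overlap, beside 13.5% of all genes. Without the 3 libraries that stood apart, 2 members were called, both higher. Of 8 tested T cell markers 3 rose here, and 2 of 9 fibroblast markers fell, and their part was not tested. The 5 called members were all MMPs; the ADAM, ADAMTS and TIMP genes had none at an adjusted p under 0.05.

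Mmp10 measured 6.08, 6.13, 5.68 and 6.77 CPM in the group given both, from 112, 50, 81 and 79 counts. These were the highest Mmp10 values of the first experiment, all above the cytochalasin D libraries, with a log2 fold change of 1.13 (SE 0.21, 2.19-fold higher, adjusted p = 0.00113). Mmp12 measured 12.3, 14.1, 15.0 and 12.0 CPM in the group given both, likewise above every library with cytochalasin D alone, with a log2 fold change of 0.70 (SE 0.15, 1.63-fold higher, adjusted p = 0.00483). Mmp17 measured 3.80, 3.43, 3.79 and 3.52 CPM, below the cytochalasin D libraries and near the control level, with a log2 fold change of -0.65 (adjusted p = 0.014). The call was lost without cytochalasin D library 2 (adjusted p = 0.058). Mmp28, a secreted MMP also called epilysin, measured 9.67, 6.47, 6.57 and 7.16 CPM with cytochalasin D and 5.59, 4.17, 5.33 and 4.46 CPM with both. The groups did not overlap, with a log2 fold change of -0.58 (adjusted p = 0.0183), and the call was lost without cytochalasin D library 1 (adjusted p = 0.08), without library 2 (adjusted p = 0.0521) or library 4 (adjusted p = 0.0616) of the group given both. Mmp9 measured 88.0, 98.3, 83.8 and 84.5 CPM and overlapped the cytochalasin D group. Its log2 fold change of -0.23 (adjusted p = 0.0464) was not called on leaving out any 1 of 6 libraries (cytochalasin D libraries 1, 2 and 3 and libraries 1, 3 and 4 of the group given both), with adjusted p = 0.0756 to 0.183.

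Adamts1 measured 68.3, 66.3, 64.3 and 65.7 CPM in the group given both, overlapping the cytochalasin D libraries, with a log2 fold change of -0.08 (adjusted p = 0.487) and a 95% interval of -0.20 to 0.05. Adamts6 measured 9.12, 6.62, 8.0 and 11.0 CPM. Its groups overlapped and its log2 fold change of 0.50 (adjusted p = 0.0513) missed the threshold here and passed it with DESeq2 (adjusted p = 0.0398) and without cytochalasin D library 4 (adjusted p = 0.023) or library 2 of the group given both (adjusted p = 0.0274). Without cytochalasin D library 4, 8 members were called in place of 5, with Adamts4, Adamts6 and Adamts7 added. Timp1 measured 104, 97.0, 94.6 and 101 CPM and Timp2 105, 96.8, 116 and 114 CPM in the group given both. Both overlapped the cytochalasin D libraries, with log2 fold changes of -0.02 (adjusted p = 0.826) and -0.10 (adjusted p = 0.279).

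The effect of apoptotic cells with uptake possible was then compared with their effect under cytochalasin D, as the difference between the log2 fold changes. For Adamts1 that difference was 0.71 (SE 0.08, adjusted p = 1.75e-05), and it was called under all 23 alternative settings. For Mmp14 it was 0.27 (SE 0.08, adjusted p = 0.0453), and this call was lost on leaving out any 1 of 12 of the 16 libraries, all but apoptotic library 1, cytochalasin D library 4 and libraries 1 and 4 of the group given both. These 2 of 26 members compare with 4.56% of all genes called, 1.53% higher and 3.03% lower, and without the 3 libraries that stood apart Adamts1 was the 1 member called. For Mmp10 the difference was 0.19 (SE 0.34, adjusted p = 0.79), with a 95% interval of -0.51 to 0.89, and for Adamts6 it was 0.31 (SE 0.21, adjusted p = 0.417), with an interval of -0.13 to 0.75. At this precision a difference was not shown for either gene. Cytochalasin D alone also changed Adamts1 and Mmp14, with log2 fold changes of -0.77 and 0.61. Loss of uptake and other effects of the drug on these genes cannot be told apart in this design.

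With apoptotic cells present in both groups, cytochalasin D raised 8 members and lowered 4, beside 32.5% of all genes called, 16.4% higher and 16.1% lower, and the same numbers were called without the 3 libraries that stood apart. For 12 members the groups did not overlap, beside 32.1% of all genes. Of 9 tested fibroblast markers 5 fell, and their part was not tested. This comparison shares its libraries with those above, so its values are given beside them and are no independent support. Adamts1 had a log2 fold change of -1.48 (SE 0.06, 2.78-fold lower, adjusted p = 2.37e-15), its 4 libraries given both at 64.3 to 68.3 CPM and its 4 with apoptotic cells alone at 180.2 to 190.1 CPM. Adamts6 had -1.07 (SE 0.14, 2.10-fold lower, adjusted p = 3.89e-06), Mmp10 1.64 (SE 0.22, 3.11-fold higher, adjusted p = 3.33e-06) and Mmp12 1.17 (SE 0.16, 2.25-fold higher, adjusted p = 4.14e-06), all with groups that did not overlap. Adam10 measured 127, 132, 113 and 119 CPM with apoptotic cells and 153, 175, 164 and 170.3 CPM with both. The groups were clearly apart, and the log2 fold change was 0.43 (adjusted p = 1.13e-05). Adam17 measured 54.8, 54.8, 54.9 and 55.7 CPM with apoptotic cells, a very tight group, and 69.6, 58.0, 66.2 and 69.4 CPM with both, for a log2 fold change of 0.26 (adjusted p = 0.00192). The remaining called members were Mmp2, Mmp9, Mmp14 and Adam19, which were higher by log2 fold changes of 2.07, 0.35, 0.35 and 0.30, and Adam22 and Mmp28, which were lower with log2 fold changes of -0.39 and -0.55. Here too Mmp2 was a member only through the groups given cytochalasin D. Timp1 and Timp2 were not called, with log2 fold changes of 0.01 (adjusted p = 0.887) and 0.05 (adjusted p = 0.514).

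**Figure D3:**
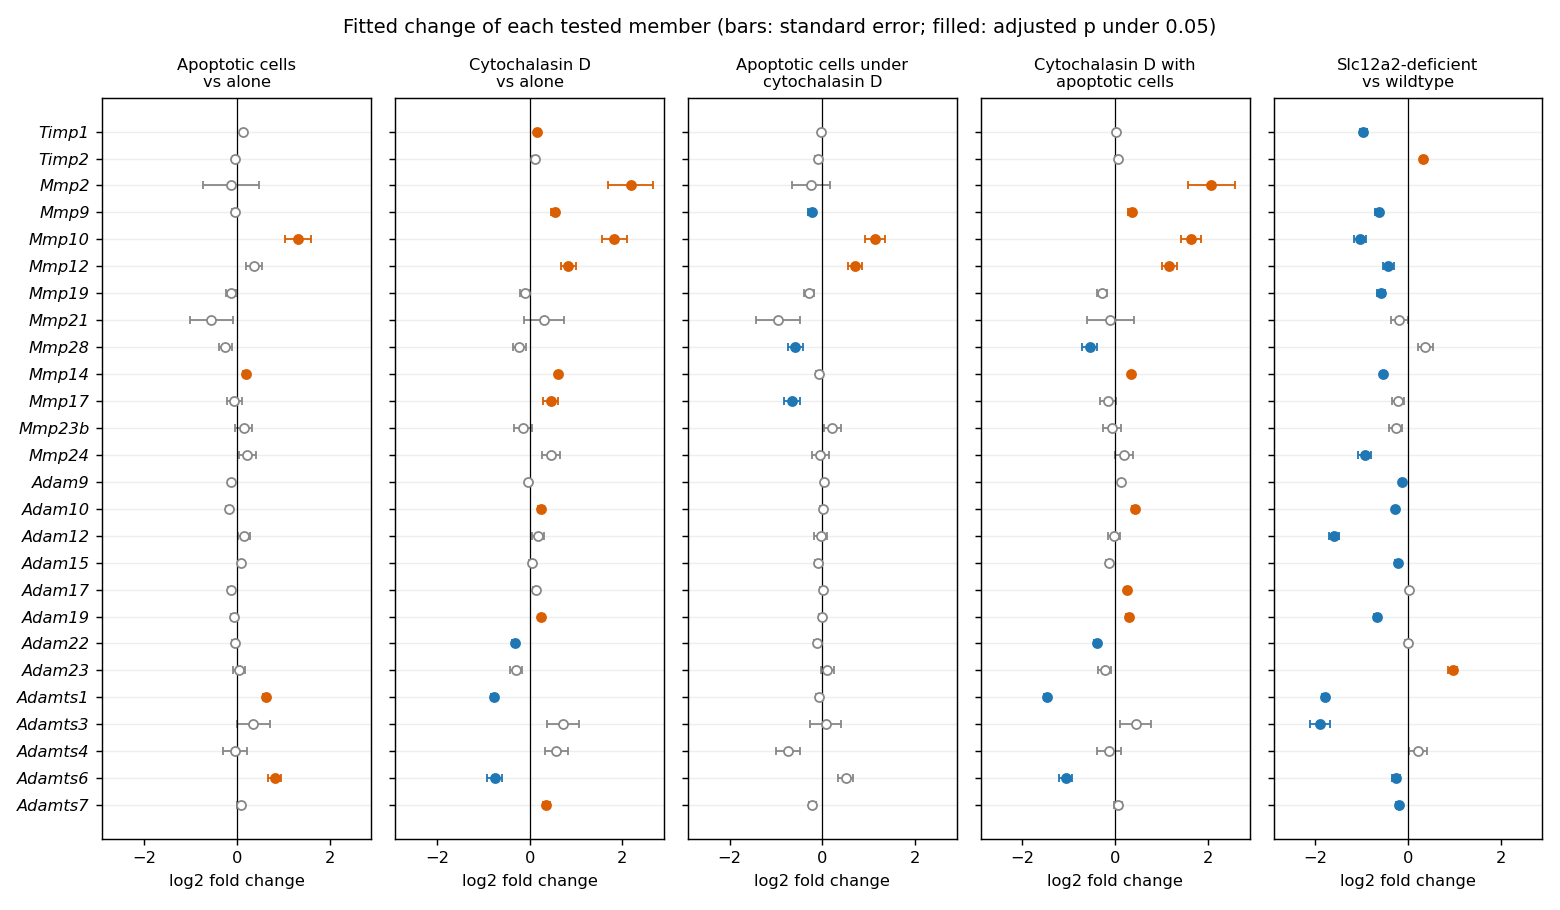
Fitted log2 fold change (horizontal axis) of each tested member in 5 comparisons, with its standard error; filled orange points rose and filled blue points fell at an adjusted p under 0.05 in edgeR's test, and open grey points were not called. Adamts1 is at 0.63 with apoptotic cells, -0.77 with cytochalasin D and -1.80 in Slc12a2-deficient phagocytes, and most called members in the last panel lie to the left of 0.

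Summed over their 5 kept genes and per kilobase of exon, the ADAMTS proteases ran from 31.4 to 32.9 CPM per kb in the controls, 22.2 to 27.4 with cytochalasin D, 46.5 to 47.8 with apoptotic cells and 21.9 to 22.7 with both. Adamts1 supplied most of that sum in the control group, with 23.8 ± 0.410 CPM per kb. The 4 membrane MMPs together ran from 45.1 to 50.1 CPM per kb in the controls and from 66.8 to 74.5 with cytochalasin D. The 2 inhibitors together ran from 138 to 145 CPM per kb in the controls and from 155 to 163 with cytochalasin D, a smaller relative difference than that of the membrane MMPs. These sums describe the libraries and were not tested.

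The second experiment asked what differs between Slc12a2-deficient and wildtype phagocytes that had both engulfed corpses. In the deficient cells 16 of 25 tested members were lower and 2 were higher, beside 42.5% of all 13050 genes called, 21.1% higher and 21.3% lower. For 16 members the groups did not overlap, beside 39.7% of all genes. The median log2 fold change was -0.26 over the tested members and -0.0018 over all genes. The members that were lower included Adamts1, Adam12, Adamts3, Timp1, Mmp10 and Mmp14, and the members that were higher were Adam23 and Timp2. By class, 4 of 5 ADAMTS genes, 5 of 6 ADAM proteases, 4 of 6 secreted MMPs and 2 of 4 membrane MMPs were lower.

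The 2 inhibitors moved in opposite directions. Timp1 measured 89.7, 86.2, 104 and 109 CPM in wildtype libraries and 45.9, 52.0, 49.8 and 51.7 CPM in the deficient ones. Every deficient library was far below every wildtype library, and the log2 fold change was -0.96 (SE 0.07, 1.95-fold lower, adjusted p = 3e-08). Timp2 measured 51.3, 54.7, 53.2 and 56.1 CPM in wildtype libraries and 71.2, 71.0, 66.4 and 62.0 CPM in the deficient ones. All deficient libraries were above all wildtype ones, and the log2 fold change was 0.33 (SE 0.05, 1.26-fold higher, adjusted p = 0.000145). Summed per kilobase, the inhibitors ran from 122 to 149.9 CPM per kb in wildtype and from 77.4 to 84.8 CPM per kb in deficient cells.

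Adamts1 measured 122, 129, 129 and 129 CPM in wildtype libraries and 39.6, 37.2, 35.2 and 34.3 CPM in the deficient ones. The groups were tight and far apart, and the log2 fold change was -1.80 (SE 0.05, 3.47-fold lower, adjusted p = 7.76e-13). Adamts3, which removes the amino-terminal propeptide of procollagens and processes VEGF-C, was low in both groups, at 2.16, 2.12, 2.84 and 2.06 CPM from 55, 49, 76 and 52 counts and 0.468, 0.656, 0.503 and 0.843 CPM from 11, 18, 14 and 19 counts. The deficient libraries were all below the wildtype ones, with a log2 fold change of -1.90 (SE 0.21, 3.73-fold lower, adjusted p = 2.92e-06). Adamts6 measured 17.2, 19.3, 19.7 and 19.6 CPM and 16.5, 15.7, 14.0 and 17.2 CPM. Its groups overlapped narrowly, and its small log2 fold change of -0.26 (adjusted p = 0.0134) was lost without deficient library 3 (adjusted p = 0.0611). Adamts7 also had overlapping groups and a log2 fold change of -0.19 (adjusted p = 0.0406), which was not called on leaving out any 1 of 7 libraries, all but deficient library 4 (adjusted p = 0.0651 to 0.116), nor with DESeq2 (adjusted p = 0.0605).

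Of the ADAM proteases, Adam12, which sheds heparin-binding EGF and is expressed in mesenchymal cells, differed most among the 6 tested. Its annotation lies on 2 scaffolds of the assembly. It measured 20.7, 22.6, 27.1 and 25.6 CPM in wildtype libraries and 6.93, 6.99, 9.41 and 8.39 CPM in the deficient ones. No deficient library came near the wildtype range, and the log2 fold change was -1.60 (SE 0.11, 3.03-fold lower, adjusted p = 1.05e-08). Adam19 measured 57.3, 57.1, 55.2 and 61.5 CPM and 34.7, 32.8, 40.0 and 37.3 CPM, again without overlap, for a log2 fold change of -0.68 (SE 0.06, 1.60-fold lower, adjusted p = 4.08e-07). Adam10 measured 216, 206, 214 and 215 CPM and 188, 159.7, 176 and 178 CPM, a smaller difference with a log2 fold change of -0.28 (adjusted p = 0.000333). Adam15 and Adam9 were lower by less, with log2 fold changes of -0.22 (adjusted p = 0.00249) and -0.14 (adjusted p = 0.0169), and the Adam9 call was lost without wildtype library 1 (adjusted p = 0.056) or 4 (adjusted p = 0.0506). Adam17 measured 63.6, 63.5, 64.8 and 67.1 CPM and 66.2, 61.3, 66.9 and 68.9 CPM. Its groups overlapped, with a log2 fold change of 0.02 (adjusted p = 0.739) and a 95% interval of -0.08 to 0.13.

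Adam23, a membrane protein without protease activity that binds integrins and LGI proteins, measured 6.16, 6.26, 5.45 and 5.56 CPM in wildtype libraries and 13.3, 11.2, 10.5 and 10.9 CPM in the deficient ones. Every deficient library was above every wildtype library, and the log2 fold change was 0.97 (SE 0.10, 1.96-fold higher, adjusted p = 8.75e-07). Its relative Adam22 measured 54.4, 59.8, 51.9 and 52.9 CPM and 61.2, 50.4, 55.3 and 51.6 CPM, with overlapping groups and a log2 fold change of -0.0032 (adjusted p = 0.974).

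Among the MMPs, Mmp10 measured 5.02, 5.31, 5.49 and 6.91 CPM in wildtype libraries and 3.40, 2.48, 2.66 and 2.57 CPM in the deficient ones, from 128, 123, 147 and 174 and 80, 68, 74 and 58 counts. All deficient libraries lay below all wildtype ones, with a log2 fold change of -1.04 (SE 0.14, 2.05-fold lower, adjusted p = 2.07e-05). Mmp14 measured 85.3, 85.1, 82.4 and 88.9 CPM and 62.5, 59.2, 56.2 and 58.8 CPM. Both groups were tight and did not overlap, with a log2 fold change of -0.53 (SE 0.05, 1.44-fold lower, adjusted p = 2.58e-07). Mmp24, a membrane MMP that cuts N-cadherin, measured 6.16, 5.18, 5.82 and 6.23 CPM and 2.68, 3.75, 3.34 and 2.35 CPM. The groups did not overlap, and the log2 fold change was -0.94 (SE 0.14, 1.91-fold lower, adjusted p = 5.38e-05). Mmp9 measured 61.3, 57.7, 61.6 and 70.8 CPM and 35.8, 40.0, 42.3 and 44.0 CPM, likewise apart, with a log2 fold change of -0.63 (SE 0.07, 1.55-fold lower, adjusted p = 3.42e-06). Mmp19 and Mmp12 were lower too, with log2 fold changes of -0.58 (adjusted p = 6.92e-05) and -0.42 (adjusted p = 0.00673). With all 8 libraries Mmp28 was not called, at a log2 fold change of 0.37 (adjusted p = 0.0785), and it was higher in the deficient cells without wildtype library 2, at a log2 fold change of 0.55 (adjusted p = 0.0101). Mmp2 was not tested, with 6, 3, 7 and 8 counts in the wildtype and 2, 2, 0 and 1 counts in the deficient libraries.

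Mmp21, Mmp23b and Adamts4, an aggrecan-cutting protease, were called in none of the 6 comparisons when all libraries were used. Their group means ran from 0.623 to 1.90 CPM for Mmp21, from 3.41 to 4.56 CPM for Mmp23b and from 1.81 to 3.07 CPM for Adamts4.

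**Figure D4:**
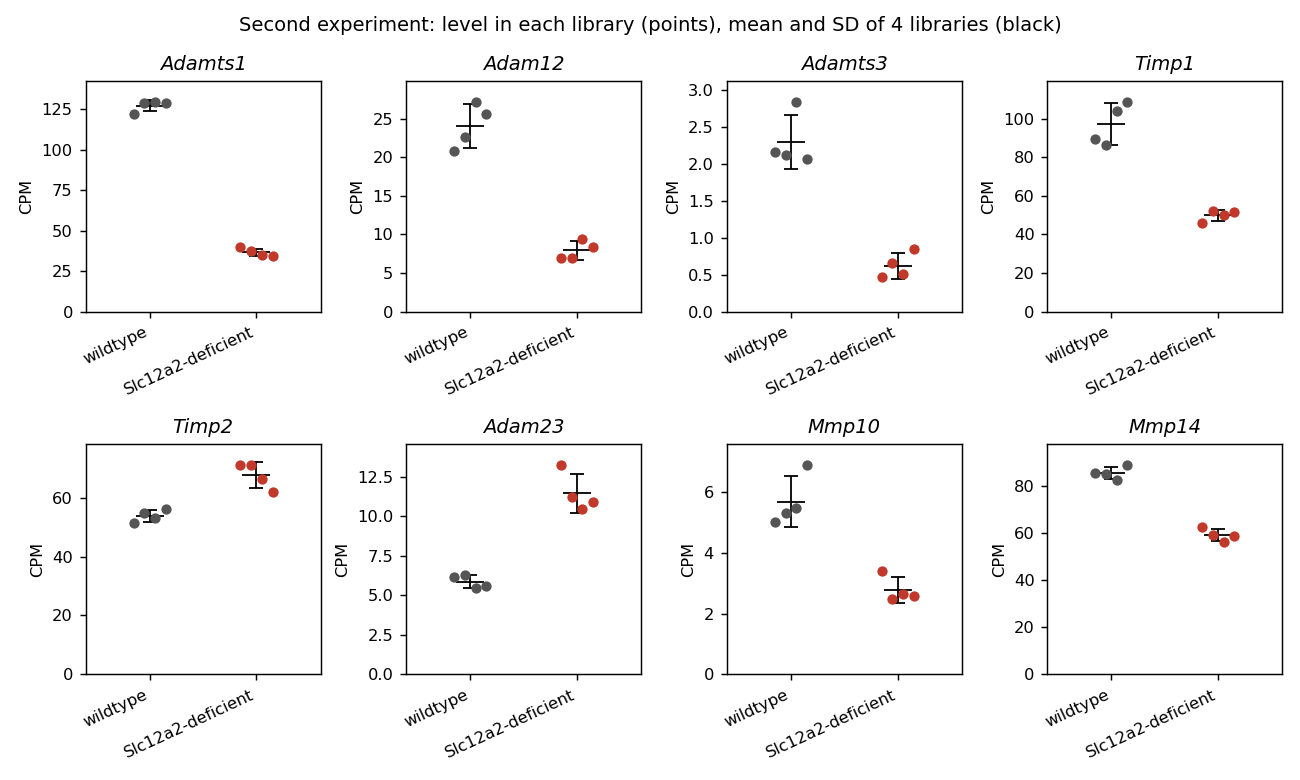
Level of 8 members in CPM in every library of the second experiment, in sorted wildtype and Slc12a2-deficient phagocytes that had engulfed corpses; points are libraries and black marks the mean and SD of 4 libraries. Adamts1, Adam12, Adamts3, Timp1, Mmp10 and Mmp14 are lower in the deficient cells, and Timp2 and Adam23 are higher.

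Of 5 tested T cell markers 1 was higher and 2 were lower in the deficient cells, and 1 of 2 myeloid markers was lower. The summed T cell markers ran from 61.7 to 67.1 CPM in the wildtype and from 58.5 to 64.2 CPM in the deficient group, with Zap70, Cd2, Cd3e, Cd3g, Cd5, Cd6, Rag1 and Lcp2 among those at 0 in both. The same list summed to 53.9 to 60.8 CPM in the first-experiment controls, which had no corpses, so the sum is no measure of corpse RNA. Of 9 tested fibroblast markers 7 were lower and 2 higher in the deficient cells, including Fn1, with a log2 fold change of -0.93 (adjusted p = 2.39e-07), and the receptor Pdgfrb, with -2.28 (adjusted p = 5.65e-08). Vim, which makes up most of the summed list, was higher, averaging 2961 CPM in wildtype and 3401 CPM in deficient cells, with 0.20 (adjusted p = 0.00157). The summed level of that list ran from 5397 to 5759 CPM in wildtype and from 5232 to 5508 CPM in deficient cells. The part of these markers in the members' differences was not tested.

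Genes that act with the family were followed in lists, which are described by their counts and without a test of the list. The counts stand beside the shares of all genes called in edgeR's test. These were 13.7% with apoptotic cells, 26.3% with cytochalasin D, 8.61% with apoptotic cells under cytochalasin D and 42.5% in Slc12a2-deficient cells. Of 7 tested genes on a list for metalloprotease activation and inhibition outside the family, 3 rose with cytochalasin D and 1 with apoptotic cells. In Slc12a2-deficient phagocytes 6 were lower and none higher. The 6 included Furin, the convertase that removes the propeptide of ADAMs and membrane MMPs, with a log2 fold change of -0.55 (adjusted p = 5.06e-07), Lrp1, the endocytic receptor that clears secreted metalloproteases and TIMPs, with -0.38 (adjusted p = 4e-05), and the cell-surface proteoglycan Sdc4 with -0.41 (adjusted p = 2.25e-06). The median log2 fold change of the list was -0.30 there, beside -0.0018 over all genes. The list mixes a convertase, a clearing receptor and a proteoglycan among others, so its counts and median give no direction for protease activity. With cytochalasin D, Sdc4 and Lrp1 were higher, with log2 fold changes of 0.55 (adjusted p = 9.11e-11) and 0.36 (adjusted p = 0.0037).

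Plasminogen activation supplies plasmin, which can activate several pro-MMPs. Of its 8 tested genes 5 rose and none fell with cytochalasin D, where the median log2 fold change of the list was 0.32. The urokinase receptor Plaur had a log2 fold change of 0.77 (adjusted p = 8.4e-05), and the tissue plasminogen activator Plat 0.53 (adjusted p = 2.26e-09). With apoptotic cells against control no gene of this list was called. In Slc12a2-deficient cells 5 were lower, among them Serpinf1, Plat and Plaur, with log2 fold changes of -2.66 (adjusted p = 2.25e-07), -0.65 (adjusted p = 9.8e-09) and -0.48 (adjusted p = 0.000105). Serpinf1 is a secreted protein of the serpin family that is known for blocking vessel growth, and it is counted among the 8 tested genes. The list mixes activators, a receptor and serpins, so its counts and median give no direction for plasmin.

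The iRhoms carry ADAM17 to the cell surface and certain tetraspanins carry ADAM10. Of 5 tested genes of this kind 3 fell with cytochalasin D: the iRhom Rhbdf1, with a log2 fold change of -0.68 (adjusted p = 2.3e-08), and the tetraspanins Tspan5, with -0.67 (adjusted p = 6.4e-06), and Tspan14, with -0.27 (adjusted p = 0.000225). None of the 5 was called in Slc12a2-deficient cells or with apoptotic cells against control. With apoptotic cells under cytochalasin D both iRhoms fell, Rhbdf2 with -0.31 (adjusted p = 0.00348) and Rhbdf1 with -0.23 (adjusted p = 0.0362).

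Of 19 tested substrates of ADAM10 and ADAM17, 7 rose and 5 fell with apoptotic cells, with no common direction. The epidermal growth factor family precursors Areg and Ereg rose, with log2 fold changes of 0.63 (adjusted p = 0.000413) and 0.49 (adjusted p = 0.00242), and E-cadherin (Cdh1) and the tumour necrosis factor receptor Tnfrsf1b fell, with -0.59 (adjusted p = 0.0449) and -0.30 (adjusted p = 0.00358). In Slc12a2-deficient cells 5 of 20 were higher and 9 lower. Ereg, Areg and Notch3 were lower, with log2 fold changes of -1.72 (adjusted p = 2.91e-12), -1.40 (adjusted p = 1.35e-11) and -1.27 (adjusted p = 2.71e-06), and the ephrin receptor Epha2 was higher, with 0.39 (adjusted p = 0.000175). Mertk, an engulfment receptor that ADAM17 can shed and that is named here after its values were seen, was also lower there, with -0.81 (adjusted p = 2.18e-05). RNA levels do not measure shedding.

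Of 9 tested substrates of ADAMTS proteases and ADAMTS-like genes, 1 rose and none fell with apoptotic cells, and none was called with cytochalasin D, comparisons in which Adamts1 and Adamts6 were both called. In Slc12a2-deficient cells 6 were lower and 1 higher, with a list median of -0.46. The proteoglycan biglycan (Bgn) had a log2 fold change of -3.30 (adjusted p = 2.87e-13), fibrillin 1 (Fbn1) -1.46 (adjusted p = 8.17e-09) and decorin (Dcn) -0.89 (adjusted p = 3.81e-05). Versican (Vcan), the proteoglycan that ADAMTS1 cuts, had -0.46 (adjusted p = 0.00018) and is likewise named after its values were seen, and the 1 that was higher was Adamtsl4, with 0.47 (adjusted p = 0.000108).

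AP-1 and ETS transcription factors are known regulators of several MMP genes. Of 10 tested, 4 rose and none fell with apoptotic cells, among them Jun with a log2 fold change of 0.58 (adjusted p = 0.0162) and Fosl2 with 0.45 (adjusted p = 0.00139). With cytochalasin D 5 rose and 1 fell. Jun measured 41.5, 46.6, 52.6 and 46.7 CPM in the controls and 182, 137, 121 and 114 CPM with cytochalasin D, groups that were far apart, with a log2 fold change of 1.57 (adjusted p = 3.83e-08). In Slc12a2-deficient cells 2 were higher and 2 lower, a share of the 10 near the 42.5% of all genes called. The list median there was -0.14. Jun was 1 of the 2 lower factors and does not stand for the list. The part of these factors in the members' changes was not tested. Jun measured 170.5, 175, 148 and 159 CPM in wildtype and 63.2, 68.3, 56.2 and 56.3 CPM in deficient libraries, again without overlap, with -1.42 (adjusted p = 2.57e-10).

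Mmp10 and Mmp12 lie in the cluster of MMP genes that follows Dcun1d5 in the order of the files. Of the named MMP genes there, Mmp13, Mmp12, Mmp1, Mmp10, Mmp8, Mmp27, Mmp20 and Mmp7, only Mmp12 and Mmp10 passed the level of the rule, and Mmp1, Mmp27 and Mmp20 had no count in any library. Between Mmp12 and Mmp1 lies a gene that the files list by a locus number and that RefSeq names Mmp3. Mmp3 measured 2.33, 2.64, 2.15 and 3.24 CPM with apoptotic cells and 4.50, 4.66, 3.37 and 4.29 CPM with both, with every library given both above every library given apoptotic cells. The log2 fold change of cytochalasin D with apoptotic cells present was 0.69 (adjusted p = 0.0166), and Mmp3 was not called in the other comparisons. In Slc12a2-deficient cells, where Mmp10 and Mmp12 were lower, it had a log2 fold change of 0.18 (adjusted p = 0.22), with 4.31, 3.46, 4.26 and 4.01 CPM in wildtype and 4.85, 4.22, 4.63 and 4.48 CPM in deficient libraries. How the counting treated fragments that fit more than 1 of these related genes is not given in the sources used here.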

How the data were processed

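Total RNA from 24 libraries was read as 75 bp paired ends. The authors deposited raw counts of fragments per gene made with featureCounts 1.5.0, per the file headers, and the submitters' processing notes name STAR, FastQC and DESeq2. The genome build is not given in the sources used here. No column of values went unused.

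Each experiment was fitted separately in R 4.3.3 with edgeR 4.0.16 (limma 3.58.1): genes passing filterByExpr (minimum count 10, minimum total 15), TMM factors, quasi-likelihood tests and Benjamini-Hochberg adjustment over all genes tested, with a threshold of 0.05. Every adjusted p is from edgeR unless DESeq2 1.42.0 is named. Printed CPM are TMM-scaled within an experiment, except those that decide membership, which are unscaled. A standard error is the log2 fold change over the root of the F statistic, and 95% intervals use the t quantile of the fit. The row without a gene name, left out, held 0.0249 to 0.0445% and 1.13 to 1.65% of fragments. The biological coefficient of variation was 7.04% and 6.06%. Count floors cover counting error only. A p-value sets a difference against the spread between libraries within groups, estimated over all groups of an experiment. The titles of the first experiment all carry the same date-like number and do not say whether the libraries are separate cultures. Variation between independent experiments is not covered by the p-values.

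No libraries were duplicates: the lowest chi-square per degree of freedom between libraries of a group was 1.89. Replicate numbers in the first experiment were not used to pair libraries in the main fit, and those of the second were given in accession order. Of 24 correlations of deviations between first-experiment libraries of equal number, 3 were over 0.1 (all from -0.0555 to 0.227). Libraries of unequal number were not compared in this way, so pairing cannot be judged from these values. The script was tested on simulated data with the same dispersion for every gene and changes set only in well-counted genes. That test does not bear on members with few counts or on libraries that stand apart.

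The members and lists were chosen with earlier results of these data known. Values per library are given for Adamts1, Mmp10, Timp genes and, per comparison, up to 8 called members of largest change whose groups were separate and averaged 4 CPM or more; of each list, up to 3 called genes per direction are named. Some further members are given as well. Alternatives were DESeq2, relative log expression factors, no filter or 1 CPM in 4 libraries, removal of a gene length trend, a block, a fit of the 8 compared libraries, leaving out each library, and, chosen after seeing the data, leaving out 3 libraries. A gene of the plasminogen list and a T cell marker are not reported here by name.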

Additional observations from a re-analysis of the deposited data

Results flagged for a closer look

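Of 96 groups of 4 libraries tested for a library far from the rest (16 genes), 6 held one by Dixon's 95% limit, and chance alone gives about 1 in 20 groups. Control library 4 stood apart for Mmp24, at 4.68 CPM. Apoptotic library 3 stood below its group for Adamts6, at 15.7 CPM. In the wildtype engulfing group, library 2 stood above the rest for Mmp28, at 3.11 CPM, and below them for Adam10, at 206 CPM. Wildtype library 1 stood below the rest for Adamts1, at 122 CPM, and for Adamts6, at 17.2 CPM.

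The effect of apoptotic cells differed with and without cytochalasin D for 2 of 26 tested members by edgeR's test of the difference itself, beside 4.56% of all genes. For Adamts1 it was higher without the drug by 0.71 on the log2 scale, and for Mmp14 by 0.27. The Mmp14 call was lost in 15 of 23 alternative settings, and the Adamts1 call in none.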

How the results depend on the processing

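Of the counts of members and of all genes called, 168 of the alternative values stayed within 1.5 times the reported count and 35 did not. Apoptotic cells under cytochalasin D called 5 members, and 3 in a fit of the 8 compared libraries, 2 without the 3 libraries that stood apart, and 3 to 8 on leaving out 1 library (3 without cytochalasin D library 1 or 2 or library 4 of the group given both, 8 without cytochalasin D library 4). For all genes in that comparison, 1129 were called, 662 without those 3 libraries and 756 to 1639 without 1. The difference between effects called 2 members, and 1 with the gene length trend removed, with a replicate block or without the 3 libraries, and 1 to 3 without 1 library (3 without cytochalasin D library 4). For all genes the difference called 598, and 928 with no filter on low counts, 976 with DESeq2, 120 without the 3 libraries and 251 (without apoptotic library 3) to 1645 (without cytochalasin D library 4). Apoptotic cells against control called 1789 of all genes, and 1103 (without apoptotic library 3) to 1700 without 1 library. The cause was not tested. The replicate block gave 4, 13, 5 and 13 members in the 4 pairwise comparisons of the first experiment, and a block on the library number set gave 18 in the second. Over all tested members and settings the sign of a fold change differed from the reported one 75 times, in 30 pairs of a member and a comparison, none of them called. Among the members tracked in full, Adamts1 under cytochalasin D ran from -0.12 to 0.0069 without 1 library and was 0.0091 without the 3, Timp1 under cytochalasin D ran from -0.046 to 0.0021 without 1 library, and Timp1 for cytochalasin D with apoptotic cells present ran from -0.019 to 0.035 without 1 library and reached 0.07 with the gene length trend removed. Mmp24 with cytochalasin D was called without cytochalasin D library 3 (adjusted p = 0.0411) and in a fit of the 8 compared libraries (adjusted p = 0.0497). For cytochalasin D with apoptotic cells present, Mmp19 was called in 3 settings (adjusted p = 0.0194 to 0.049; without apoptotic library 2, without library 2 of the group given both, and with the stricter filter), Adam9 in 2 (0.0444 without apoptotic library 4, 0.0485 with the block) and Adam15 in 1 (0.0444, the fit of 8 libraries). Adamts7 was called in the difference without cytochalasin D library 4 (adjusted p = 0.00797). Levels near the floor of 3 counts, as for Mmp2 and Adam8, limit what could be tested.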
